A study of Mus musculus with 4 samples.

Results

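In mouse embryonic stem cells with and without the leukaemia fusion NUP98-HOXA9, 10 genes of threonine, glycine and one-carbon metabolism were followed: Tdh, Gcat, Gldc, Shmt1, Shmt2, Mthfd2, Phgdh, Bhmt, Mat2a and Dmgdh. They were matched by symbol to 11 of 55401 gene identifiers, since Gcat has 2. The genes were chosen by pathway with their differences between fusion and wild-type cells already known. For these 10 genes that contrast is therefore a description: their p-values are not given, and a count past the threshold is given once, beside the share of all genes, with nothing read from it. The pathway lists read beside these 10 genes were also chosen with earlier results of these data known. The 4 libraries came from the EB3 line, grown on gelatin with LIF, serum and non-essential amino acids. There was 1 library of the parental line (wild type), 1 of EB3-derived cells with an empty vector (wild type), and 2 of EB3-derived cells that express NUP98-HOXA9 (fusion 1 and fusion 2). The labels give neither the promoter of the fusion nor whether fusion 1 and 2 are separate clones or cultures. A p-value here weighs the difference between the groups against the spread within them. That spread joins the gap between the 2 kinds of control with the gap between the fusion libraries, and the latter may be only technical.

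Threonine dehydrogenase, the product of Tdh, oxidises threonine in mitochondria, and the GCAT enzyme splits the product into glycine and acetyl-CoA. Glycine and serine feed carbon units into the folate cycle, which supplies nucleotide synthesis and the remethylation of homocysteine to methionine. Methionine is turned into S-adenosylmethionine, the methyl donor for DNA and histone methylation. Mouse embryonic stem cells are known for a high Tdh level and for their need of threonine.

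Each library held between 19021386 and 21151729 expected counts. Levels are given as CPM, a gene's counts scaled by TMM to a common library total, which allow it to be compared between libraries. TPM also corrects for length and is used to compare genes with each other. All 10 embryonic stem cell markers searched (Pou5f1, Sox2, Nanog and others) averaged at least 1 CPM in wild-type and in fusion cells. They summed to 5350 CPM in the parental line, 6010 CPM with the empty vector, 6630 CPM in fusion 1 and 6400 CPM in fusion 2. Both fusion libraries lay above both wild-type libraries for 3 of them (Nanog, Klf4 and Tfcp2l1) and below for 3 (Sox2, Zfp42 and Utf1), and 0 passed the test. The 14 markers of primitive and visceral endoderm summed to 89.4 and 75.9 CPM in wild-type cells and to 747 and 764 CPM in fusion cells. Of these 14 markers, 12 were higher in both fusion libraries than in both wild-type libraries and 10 passed the test, while Afp, Ttr and Apoa1 stayed under 1 CPM in every library. The 8 markers of 2-cell-like cells summed to 5.05 and 14.9 CPM against 78.1 and 385 CPM, and 5 passed. The 6 fibroblast markers summed to 42.7 and 29.6 CPM against 84.9 and 85.3 CPM, and 1 (Pdgfrb) passed, higher in fusion cells. The 5 neural markers summed to 170 and 163 CPM against 124 and 141 CPM. Pax6, Nes and Map2 were lower in both fusion libraries than in both wild-type libraries and did not pass. The 1 that passed (Sox1) was higher in fusion cells, at 6.17 and 4.06 CPM against 0.99 and 1.06 CPM. The part of these marker sets in the differences described here was not tested. In bulk RNA, fewer cells of a type cannot be told apart from less RNA per cell.

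By TPM, Tdh was the most abundant of the 10 genes in both wild-type libraries and ranked 3 and 2 in fusion 1 and 2. Bhmt and Dmgdh held the last 2 ranks in every library. Both fusion libraries lay below both wild-type libraries for Tdh, Gcat, Gldc and Shmt1 and above them for Bhmt and Dmgdh. The groups overlapped for Shmt2, Mthfd2, Phgdh and Mat2a. Among all 16511 genes tested, both fusion libraries lay below the wild-type libraries for 24.2% and above them for 27.1%. Of the 10 genes, 1 (Bhmt) was called higher and 1 (Tdh) was called lower at an adjusted p of 0.05 by edgeR's quasi-likelihood test, which called 2.83% of all genes higher and 0.581% lower. Since the genes were picked with this contrast in view, nothing is read from those counts.

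**Figure D1:**
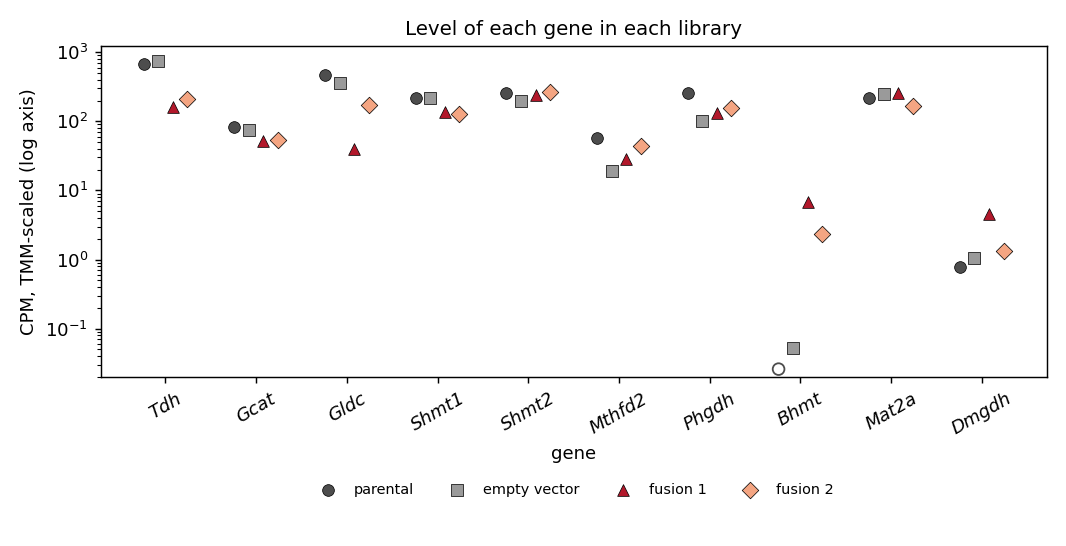
Level of each of the 10 genes in the 4 libraries, as TMM-scaled CPM on a log axis; each point is 1 library and the open circle marks 0 counts. Tdh, Gcat, Gldc and Shmt1 sit lower in both fusion libraries, Bhmt and Dmgdh sit higher, and the other genes overlap.

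Tdh showed the clearest separation among the abundant genes. It lies on chromosome 14 (63492347 to 63509092, minus strand, GRCm38). Its level was 677 CPM in the parental library, 738 CPM with the empty vector, 163 CPM in fusion 1 and 209 CPM in fusion 2. The wild-type libraries differed by 1.09-fold and the fusion libraries by 1.28-fold, while the fitted level was 3.81-fold lower in fusion cells (log2 fold change -1.93, SE 0.20). Against the parental line alone the log2 fold change was -1.87, and against the empty vector alone it was -2.0. These contrasts share the fusion libraries.

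Gcat, which acts next after Tdh, moved by less. The main identifier (chromosome 15, 79030874 to 79038353, plus strand) read 81.7 CPM in the parental line, 75.5 CPM with the empty vector, 51.8 CPM in fusion 1 and 54.1 CPM in fusion 2. The groups did not overlap, and its fitted level was 1.48-fold lower in fusion cells. A further identifier with the symbol Gcat overlaps it on the same strand and had 14.6, 7.27, 8.27 and 6.25 CPM in the same library order, and how reads were divided between both is uncertain. Summed, the identifiers gave 96.3, 82.8, 60.1 and 60.4 CPM, 1.49-fold lower in fusion cells. Within a library the TPM ratio of Tdh to Gcat was 6.91 and 8.01 in wild-type cells and 2.56 and 3.17 in fusion cells, with no overlap between the groups. The other genes of threonine and serine breakdown, Sds, Sdsl and Tha1, stayed below 1 CPM in all libraries.

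Glycine decarboxylase, encoded by Gldc, is the subunit of the mitochondrial glycine cleavage system that binds glycine. Gldc (chromosome 19, 30098447 to 30175429, minus strand) had the widest gap between the fusion libraries among the 10 genes. It stood at 470 CPM in the parental library and 356 CPM with the empty vector, against 39.3 CPM in fusion 1 and 170 CPM in fusion 2. Both fusion libraries were low, yet fusion 2 was 4.32-fold above fusion 1. The fitted fold change of 3.93 (log2 -1.98, SE 0.59) is close to that of Tdh but carries a larger error. Without fusion 1 the log2 fold change was -1.28, and without fusion 2 it was -3.39.

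Of the other 3 subunit genes of the cleavage system (Amt, Gcsh and Dld), 0 passed the test. Amt, the aminomethyltransferase, had 59.1 and 103 CPM in wild-type cells and 133 and 90.6 CPM in fusion 1 and 2 (log2 fold change 0.46, adjusted p = 0.474, edgeR). Gcsh, the lipoyl carrier protein, had 165 and 115 CPM against 97.1 and 104 CPM (log2 -0.48, adjusted p = 0.285, edgeR). The TPM ratio of Gldc to Gcsh was 1.02 in the parental library, 1.11 with the empty vector, 0.151 in fusion 1 and 0.613 in fusion 2.

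Serine hydroxymethyltransferases interconvert serine and glycine, SHMT1 in the cytosol and SHMT2 in mitochondria. Shmt1 (chromosome 11, 60788104 to 60811718, minus strand) read 216 and 215 CPM in wild-type cells against 137 and 126 CPM in fusion 1 and 2, a 1.64-fold lower fitted level (log2 -0.72, SE 0.17). The wild-type values were nearly equal, and the groups did not overlap. Shmt2 (chromosome 10, 127517123 to 127522444, minus strand) stood at 257 and 198 CPM against 239 and 269 CPM, so its groups overlapped (log2 0.16, SE 0.19). The ratio of Shmt2 to Shmt1, by TPM, was 1.02 and 0.824 in wild-type cells and 1.53 and 1.76 in fusion cells. Smcr8 overlaps Shmt1 and Ndufa4l2 overlaps Shmt2 on the opposite strand. The sources used here do not state how strand was handled in counting, and reads in these overlaps cannot be assigned with certainty.

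**Figure D2:**
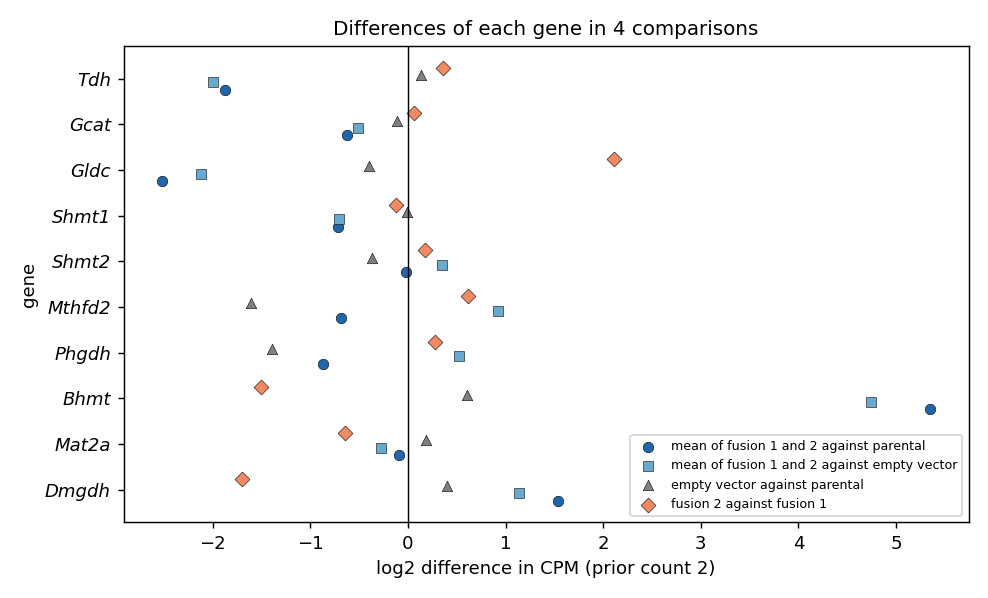
Log2 differences in CPM (prior count of 2) for each of the 10 genes: the mean of the fusion libraries against the parental and against the empty-vector library, and the differences between the controls and between the fusion libraries. Tdh, Gcat and Shmt1 show small differences within each kind of library. Gldc, Bhmt and Dmgdh show a large one between fusion 1 and 2, and Mthfd2 and Phgdh show a large one between the controls.

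Phgdh and Mthfd2 differed more between the controls than between fusion and wild-type cells. Phosphoglycerate dehydrogenase, encoded by Phgdh (chromosome 3, 98313170 to 98339990, minus strand), takes the committed step of serine synthesis. It stood at 260 CPM in the parental library, 99.5 CPM with the empty vector, 130 CPM in fusion 1 and 157 CPM in fusion 2. The mitochondrial folate enzyme gene Mthfd2 (chromosome 6, 83305691 to 83325908, minus strand) stood at 57.7, 18.8, 28.8 and 44.2 CPM in the same order. In both genes the parental library was highest, the empty-vector library lowest, and the fusion libraries lay between. The sign of the fusion difference therefore depended on the control: the log2 fold change of Mthfd2 was -0.67 against the parental line and 0.95 against the empty vector, and that of Phgdh was -0.87 and 0.52.

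Each control is a single library, so their difference has no replicate check and folds are given at a prior count of 2. Phgdh was 2.62-fold and Mthfd2 3.05-fold lower with the empty vector than in the parental line. Of the 9 genes among the 10 with at least 1 CPM in either control, these 2 were at least 2-fold lower and 0 were at least 2-fold higher. Over all 14719 genes compared, 3.87% were at least 2-fold lower and 4.87% at least 2-fold higher. Over the 13 pathway lists with the 10 genes included, 12 of 79 genes (15.2%) were at least 2-fold lower and 1 (Aldh1l1) was at least 2-fold higher.

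The genes that were low beside Phgdh and Mthfd2 in the empty-vector library included known targets of ATF4, the transcription factor of the amino acid response. Of the 12 genes listed for ATF4 and the amino acid response, 10 were lower with the empty vector and 5 were at least 2-fold lower: Asns, Atf5, Chac1, Nupr1 and Vldlr. Over all 14719 genes compared, 7408 were lower and 3.87% were at least 2-fold lower. The list's median log2 difference was -0.62, beside -0.00 over all genes compared. The list also differed between the fusion libraries: 9 of the 12 genes were higher in fusion 2 than in fusion 1, beside 7852 of all 15387 genes compared. Of the 12 genes, 3 were at least 2-fold higher (Ddit3, Nupr1 and Vldlr), beside 7.36% of all genes compared. The list's median log2 difference between fusion 2 and fusion 1 was 0.53, beside 0.01 over all genes. Asns, asparagine synthetase, stood at 303 CPM in the parental library, 114 CPM with the empty vector, 165 CPM in fusion 1 and 231 CPM in fusion 2. Psat1, the aminotransferase that acts after PHGDH, stood at 444, 122, 101 and 196 CPM and was 3.64-fold lower with the empty vector. Psph, which completes serine synthesis, stood at 39.3, 26.8, 26.4 and 33.0 CPM. In Psat1 and Psph the parental library was highest, and fusion 1, not the empty-vector library, was lowest. With a single library of each control, a low empty-vector level cannot be told apart from a high parental one. Aldh1l2, the mitochondrial formyltetrahydrofolate dehydrogenase, was 5.52-fold lower, at 4.84 and 0.796 CPM in the 2 controls. The genes Slc1a4 and Slc6a9, for carriers of neutral amino acids and of glycine, were 2.36-fold and 2.87-fold lower. Atf4 itself stood at 286 and 195 CPM in the controls and at 308 and 181 CPM in fusion 1 and 2, with no order by group.

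**Figure D3:**
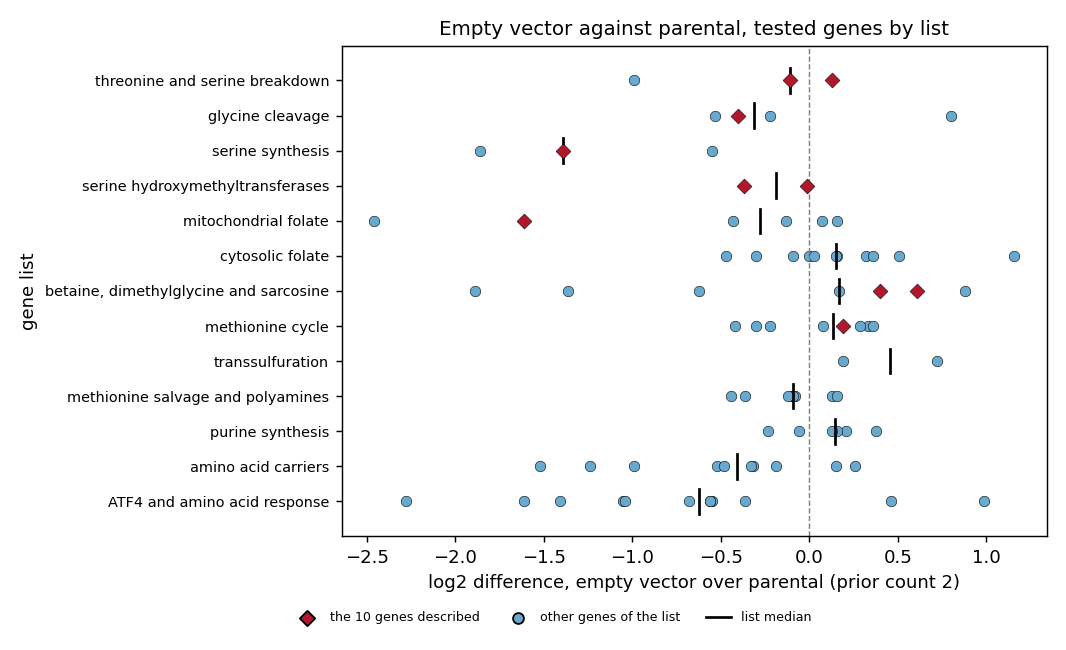
Log2 difference of the empty-vector library over the parental library (prior count of 2) for each tested gene, by pathway list; diamonds are the 10 genes, circles the other genes and bars the list medians. The medians of the serine synthesis and ATF4 lists lie furthest to the left of 0, and several other medians also lie left of it. Phgdh and Mthfd2 are the lowest of the 10 genes, while Aldh1l2, Nupr1, Slc6a12 and Psat1 lie lower still.

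Against all wild-type cells, none of the 12 ATF4 list genes passed the test, and the list's median log2 fold change was 0.03. Vldlr, a lipoprotein receptor, and Ddit3, the stress factor CHOP, had the largest differences, with log2 fold changes of 1.00 and 0.90 (adjusted p = 0.349 and 0.306, edgeR). Psat1 differed by -0.93 on the log2 scale (adjusted p = 0.436, edgeR) and Psph by -0.16 (adjusted p = 0.807, edgeR). In mitochondrial folate metabolism 0 of 5 genes other than Mthfd2 passed. The largest differences there were a log2 fold change of -0.76 for Mthfd2l and 0.54 for Aldh1l2 (adjusted p = 0.287 and 0.756, edgeR). The test takes both controls as 1 group, so the gap between them counts as spread. A gene of these lists that did not pass is therefore not shown to be unchanged. Asns, for example, had a log2 fold change of -0.62 against the parental line alone and 0.79 against the empty vector alone.

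Promoter windows from RefSeq (GRCm38.p6, 250 bases before to 50 bases after the start) were found for 9 of the 10 genes. A composite ATF4 and C/EBP site was searched as TGATGNAA on both strands. It lay in the windows of 5 of the 11 ATF4 list genes with a window and in 0 of the 9, while 3.97% of all 32851 windows hold it. The list is made of known targets, so its share is no finding. The stretches around the match, in capitals, are shown for 3 genes that were low with the empty vector:
Asns, chr6:7693199-7693258, minus strand, match beginning 23 bases upstream of the start: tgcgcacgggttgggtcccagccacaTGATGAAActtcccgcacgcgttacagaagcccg
Chac1, chr2:119351023-119351082, plus strand, match beginning 193 bases upstream: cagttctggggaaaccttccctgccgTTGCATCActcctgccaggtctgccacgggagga
Nupr1, chr7:126625547-126625606, minus strand, match beginning 110 bases upstream: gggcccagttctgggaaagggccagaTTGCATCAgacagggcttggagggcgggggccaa

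The E-box CACGTG, held by 7.15% of all windows, lay in 1 of the 9, that of Gcat. A site for Hox with Pbx proteins, searched as TGATTNAT and held by 3.22% of all windows, lay in 1 of the 9, that of Phgdh. Each of these windows held only that 1 of the 3 motifs. These matches are letters in a window and not shown binding sites; the stretches are given with the match in capitals:
Gcat, chr15:79030850-79030907, plus strand, match beginning 2 bases downstream of the start: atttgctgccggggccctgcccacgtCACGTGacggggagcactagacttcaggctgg
Phgdh, chr3:98340124-98340183, minus strand, match beginning 188 bases upstream: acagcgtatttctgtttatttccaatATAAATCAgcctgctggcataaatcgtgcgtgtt

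Bhmt and Dmgdh were nearly silent in wild-type cells and higher in both fusion libraries. Betaine-homocysteine methyltransferase, the product of Bhmt, makes methionine from homocysteine with betaine as the methyl donor and is best known from liver and kidney. Dimethylglycine dehydrogenase, the product of Dmgdh, takes up the dimethylglycine that this reaction leaves and passes its methyl group to folate. Bhmt had 0 counts in the parental line, 1 with the empty vector, 136 in fusion 1 and 51 in fusion 2, or 0, 0.053, 6.82 and 2.33 CPM. Over the groups the ratio was 170, with a 95% exact binomial interval from 30.1 to 6750 that covers counting error only. Against a floor of 3 counts in the parental library, fusion 1 was at least 43.6-fold and fusion 2 at least 14.9-fold higher. Fusion 1 was 2.85-fold above fusion 2 (prior count of 2).

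Dmgdh had 15 and 20 counts in wild-type cells and 90 and 29 counts in fusion 1 and 2. Its level was 0.781 and 1.06 CPM against 4.51 and 1.32 CPM, so fusion 2 stood just above the empty-vector library. The 95% Poisson interval of fusion 2, 0.886 to 1.90 CPM, overlaps that of the empty-vector library, 0.648 to 1.64 CPM. The fitted fold change of 3.15 (log2 1.65, SE 0.67) rested on fusion 1: without it the log2 fold change was 0.51. Between fusion 2 and fusion 1, 2 of the 10 genes (Bhmt and Dmgdh) were at least 2-fold lower and 1 (Gldc) was at least 2-fold higher, beside 2.94% and 7.36% of the 15387 genes compared.

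These genes are neighbours on chromosome 13. Bhmt (93616675 to 93637961) and Bhmt2, a homologue that uses S-methylmethionine (93655720 to 93674302), lie on the minus strand, and Dmgdh (93674433 to 93752833) follows on the plus strand. Bhmt2 had 0.156 and 0.371 CPM in wild-type cells and 1.5 and 0.73 CPM in fusion 1 and 2 (log2 2.05, adjusted p = 0.159, edgeR). Arsb, the next gene, had 0.833 and 1.17 CPM against 3.36 and 3.51 CPM (log2 1.77, adjusted p = 0.0883, edgeR). Neither passed the test, though both fusion libraries lay above both wild-type libraries in each. Further out, Jmy, Homer1 and Lhfpl2 did not pass (adjusted p = 0.697, 0.551 and 0.550, edgeR). From Bhmt to Arsb these 4 genes had higher values in both fusion libraries, and the 3 flanking genes had overlapping ones. Of all genes tested, 27.1% also lay higher in both fusion libraries, and Bhmt and Dmgdh were chosen with this contrast known. Nothing is therefore read from the run of 4, in which Bhmt2 had only 3, 7, 30 and 16 counts in library order.

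**Figure D4:**
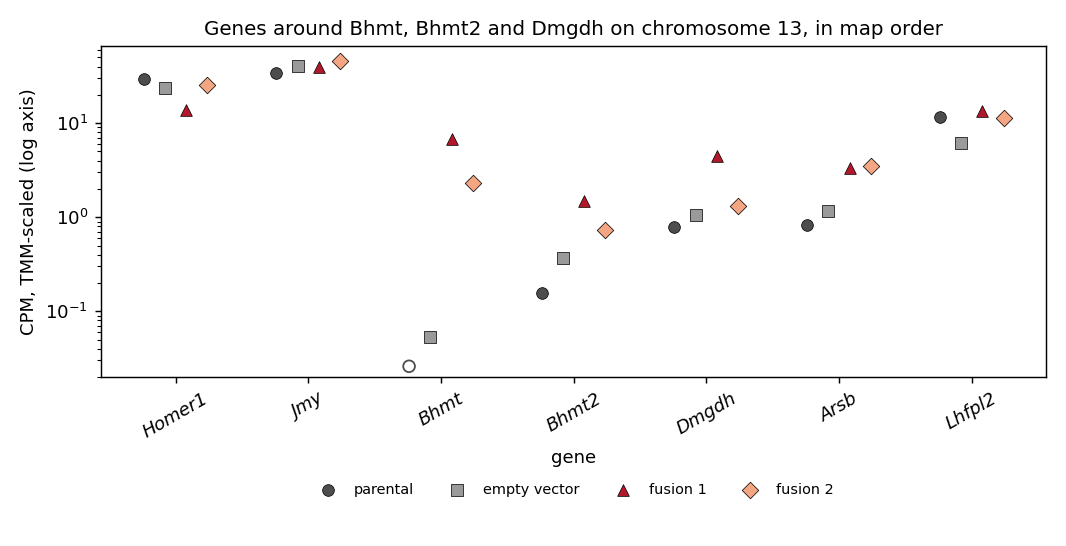
Level of 7 genes in map order around Bhmt, Bhmt2 and Dmgdh on chromosome 13, as TMM-scaled CPM on a log axis, 1 point per library and an open circle for 0 counts. From Bhmt to Arsb both fusion libraries lie above both wild-type libraries, and Homer1, Jmy and Lhfpl2 overlap.

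Bhmt2 and Dmgdh start back to back, with 133 bases between their RefSeq starts. The window of Dmgdh has that stretch in capitals, since any element in it lies upstream of both genes. The window of Bhmt, with the 50 bases from its RefSeq start onwards in capitals, is given beside it because Bhmt had the largest relative difference of the 10 genes. The gene span of Bhmt given above, from GENCODE, begins upstream of that RefSeq start, so part of the lower-case stretch lies inside the span:
Dmgdh, chr13:93674186-93674485, plus strand: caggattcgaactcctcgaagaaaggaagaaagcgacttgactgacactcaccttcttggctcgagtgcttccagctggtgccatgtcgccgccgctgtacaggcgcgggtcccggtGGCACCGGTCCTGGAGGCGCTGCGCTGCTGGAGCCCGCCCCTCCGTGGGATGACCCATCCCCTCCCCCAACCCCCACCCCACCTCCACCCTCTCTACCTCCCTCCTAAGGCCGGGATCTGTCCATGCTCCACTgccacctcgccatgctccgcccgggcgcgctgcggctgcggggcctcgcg
Bhmt, chr13:93637709-93638008, minus strand: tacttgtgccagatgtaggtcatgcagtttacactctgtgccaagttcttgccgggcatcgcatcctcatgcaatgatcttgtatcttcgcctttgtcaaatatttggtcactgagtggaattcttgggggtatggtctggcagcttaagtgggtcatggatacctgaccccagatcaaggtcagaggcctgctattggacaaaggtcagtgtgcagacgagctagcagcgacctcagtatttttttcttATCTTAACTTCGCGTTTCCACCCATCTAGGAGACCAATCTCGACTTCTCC

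The windows differ in base composition. G and C made up 68.0% of the Dmgdh window and 73.7% of the Bhmt2 window, with 25 and 26 CpG sites, and 48.0% of the Bhmt window, with 8 CpG sites. The median over all windows was 52.7%, with 7 CpG sites. None of the 3 motifs searched lay in these windows.

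Markers of cell types known for betaine metabolism were read beside Bhmt. Of 8 hepatocyte genes, Serpina1a had 0 counts in all libraries, and Cyp2e1, Tat, Fgb and Apoh stayed below 1 CPM in each. Alb, albumin, had 0.625 and 0.265 CPM in wild-type cells against 1.1 and 0.73 CPM in fusion 1 and 2 and did not pass (adjusted p = 0.428, edgeR). The list summed to 2.45 and 2.39 CPM in wild-type cells and to 61.1 and 10.9 CPM in fusion 1 and 2. Hnf4a, a transcription factor of liver and visceral endoderm, supplied 58.7 and 8.98 CPM of these fusion sums and stood at 0.573 and 0.530 CPM in wild-type cells. It was the 1 gene of the 8 that passed (log2 5.92 with SE 0.96, adjusted p = 0.0298, edgeR), with fusion 1 6.48-fold above fusion 2 (prior count of 2). Bhmt, Dmgdh and Hnf4a were each higher in fusion 1 than in fusion 2, and whether they came from the same cells was not tested.

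Other enzymes of betaine, dimethylglycine and sarcosine were not called. Of 7 such genes other than Bhmt and Dmgdh, 5 were tested and 0 passed. Gnmt, which methylates glycine, stood at 5.21 and 1.96 CPM in wild-type cells and at 1.20 and 3.01 CPM in fusion 1 and 2 (log2 -0.76, adjusted p = 0.589, edgeR). Pipox, which oxidises sarcosine, stood at 72.4 and 47.2 CPM against 46.4 and 33.3 CPM (log2 -0.59, adjusted p = 0.304, edgeR). Slc6a12, a betaine carrier, had 0.469 and 0.053 CPM against 2.41 and 1.82 CPM (log2 2.98, adjusted p = 0.0928, edgeR). Chdh, which starts betaine synthesis from choline, stayed under 1 CPM in every library.

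Mat2a encodes the catalytic subunit of the methionine adenosyltransferase of most tissues, which makes S-adenosylmethionine. Mat2a (chromosome 6, 72432799 to 72439558, minus strand) read 218 and 250 CPM in wild-type cells against 256 and 164 CPM in fusion 1 and 2. The groups overlapped, with fusion 1 the highest and fusion 2 the lowest of all (log2 -0.15, SE 0.24). Its liver counterpart Mat1a stayed under 1 CPM in every library. Of 7 other tested genes of the methionine cycle, 1 passed: Ahcyl2, a relative of the enzyme that splits S-adenosylhomocysteine, rose from 38.6 and 28.8 CPM to 83.5 and 66.3 CPM (log2 fold change 1.15 with SE 0.23, adjusted p = 0.0494, edgeR). Ahcyl2 was higher in 2 of 2 fusion libraries, but its adjusted p was 0.209 without fusion 1, 0.124 without the empty-vector library and 0.0634 without fusion 2.

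Among the 80 pathway genes outside the 10, a total of 73 could be tested. Of these, 2 (2.74%) rose and 1 (1.37%) fell, beside 2.83% and 0.581% of all genes tested. The median log2 fold change of the 73 was -0.20, beside -0.00 for all genes. Both fusion libraries lay below both wild-type libraries in 28 of the 73 (38.4%) and above them in 10 (13.7%). The shares given above for all genes were 24.2% and 27.1%. The lists were chosen with earlier results of these data known, so these differences from all genes are a description, and nothing is read from them.

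**Figure D5:**
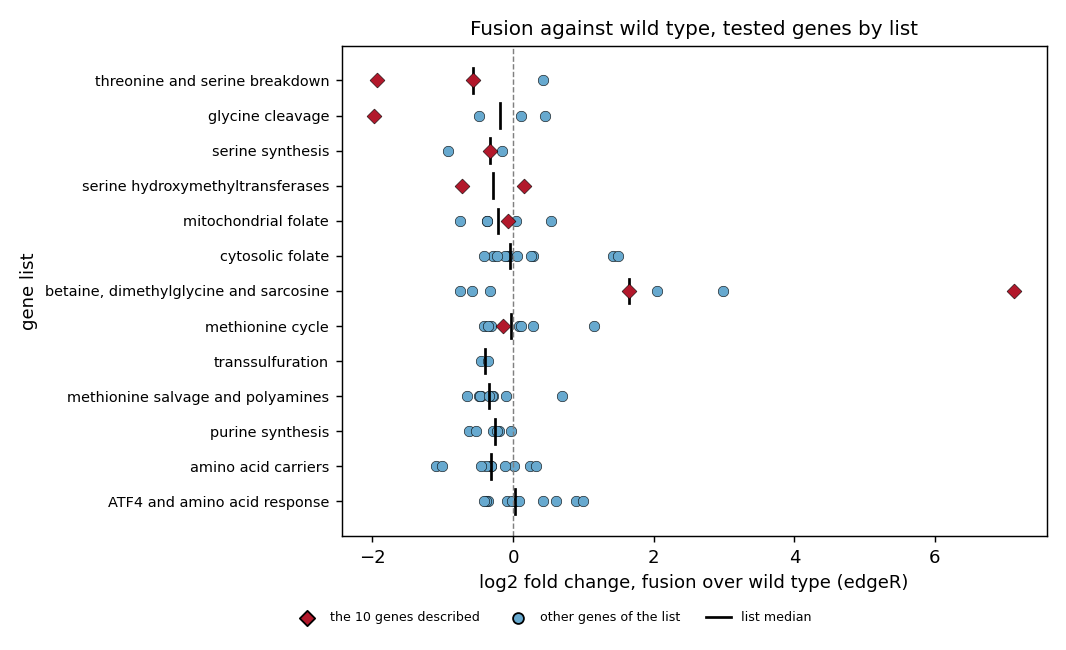
Log2 fold change of fusion over wild-type cells from edgeR for each tested gene, by pathway list; diamonds are the 10 genes, circles the other genes and bars the list medians. Most lists centre just below 0; the fitted value of Bhmt at the far right depends on the prior count, since wild-type cells had 1 count.

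Folr1 was the other gene that rose. It encodes folate receptor alpha, which takes folate into the cell, and rose from 28.5 and 31.6 CPM to 107 and 61.5 CPM (log2 fold change 1.49 with SE 0.29, adjusted p = 0.0437, edgeR). Both fusion libraries were above both wild-type libraries, but Folr1 did not pass without fusion 1 (adjusted p = 0.144), without the parental library (adjusted p = 0.119) or without the empty-vector library (adjusted p = 0.0918). Slc46a1, the proton-coupled folate carrier, had 8.65 and 7.0 CPM against 28.4 and 13.4 CPM and did not pass (log2 1.42, adjusted p = 0.109, edgeR). The reduced folate carrier Slc19a1 differed by -0.23 on the log2 scale (adjusted p = 0.686, edgeR). The cytosolic enzyme genes Mthfd1 and Tyms had log2 fold changes of -0.05 and -0.09.

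Slc38a2, the sodium-coupled carrier of small neutral amino acids, was the 1 pathway gene that fell. It fell to 312 and 268 CPM in fusion cells, from 533 and 639 CPM in wild-type cells (log2 fold change -1.01 with SE 0.19, adjusted p = 0.0391, edgeR). It was lower in 2 of 2 fusion libraries, with adjusted p = 0.129 without fusion 1, 0.117 without fusion 2 and 0.0751 without the empty-vector library. Slc38a1, its neighbour on chromosome 15 and a carrier of the same family, had 187 and 149 CPM against 61.9 and 95.6 CPM and did not pass (log2 -1.10, adjusted p = 0.0652, edgeR). Of the other 8 tested carriers, 0 passed.

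Purine synthesis, which takes up formyl groups from folate, had 0 of 6 genes past the test, and all 6 had negative log2 fold changes with a median of -0.26. The largest were -0.62 for Pfas and -0.53 for Atic (adjusted p = 0.141 and 0.193, edgeR). In methionine salvage and polyamine synthesis 0 of 9 passed, and 8 of 9 values were negative. The largest there were 0.70 for Apip and -0.66 for Adi1 (adjusted p = 0.287 and 0.146, edgeR). The transsulfuration genes Cbs and Cth had log2 fold changes of -0.45 and -0.35 (adjusted p = 0.412 and 0.438, edgeR). Of all 16511 genes tested, 8307 had negative log2 fold changes. Since the lists were chosen with earlier results of these data known, nothing is read from these counts of signs.

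The transcript mix was read from the mean transcript length that RSEM weights by isoform shares. Phgdh had 1512 and 1524 bases in wild-type cells and 1652 and 1646 bases in fusion 1 and 2, and Tdh had 1518 and 1500 bases against 1562 and 1576 bases. Mat2a had 2403 and 2417 bases against 2122 and 2348 bases. The groups were apart, longer in fusion cells, for Tdh, Gcat and Phgdh and, shorter, for Mthfd2 and Mat2a. Of 13259 tested genes with several transcripts, 17.6% were longer and 15.4% shorter in both fusion libraries, and the median range over the 4 libraries was 201 bases. Of these 5 genes, the range was below that median for Tdh (76 bases), Gcat (66), Mthfd2 (118) and Phgdh (141) and above it for Mat2a (295).

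Genes with the most similar profiles were found by the Euclidean distance between mean-centred log2 CPM over the 4 libraries, among 11816 named genes outside the lists with a mean of at least 2 CPM. For Tdh they included Zfp608 and Met, at distances of 0.27 and 0.33. For Gldc they were Bspry, Mageb16 and Pax6 (0.11 to 0.22), which share the low level in fusion 1 and the partial one in fusion 2. Bspry, for example, stood at 25.5, 20.4, 2.26 and 10.2 CPM in the parental, empty-vector, fusion 1 and fusion 2 libraries. For Bhmt they were Cemip, Hal and Rarb (0.08 to 0.43). Hal, the histidine-degrading enzyme histidase, stood at 0.260, 0.318, 19.1 and 7.34 CPM, and Rarb, a retinoic acid receptor, at 0.156, 0.371, 15.1 and 7.61 CPM. For Dmgdh they were Wnt6, Lhpp and Fbn1 (0.19 to 0.31). The distances rest on 4 libraries and are a description of them.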

How the data were processed

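The 4 RNA libraries were made with a kit that keeps strand, per the labels' protocols. For each library the authors deposited a gene table of expected counts, TPM, FPKM and mean transcript length, per the file headers. The submitters' processing notes list RSEM 1.3.3, STAR 2.7.10a and DESeq2 1.36.0, and the GRCm38/mm10 build. Neither annotation release nor strand setting is stated there. Deposited FPKM values were not used.

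Of the identifiers, 55141 (99.53%) matched GENCODE vM21 for symbols and coordinates. Where 2 identifiers share a symbol, the one with more counts stands for the gene. Expected counts were rounded and fitted with edgeR 4.0.16 in R 4.3.3: TMM scaling, filterByExpr with a minimum count of 10, a robust quasi-likelihood fit of fusion (n = 2) against parental and empty vector together (n = 2), two-sided, Benjamini-Hochberg over 16511 genes, threshold 0.05. With 2 residual degrees of freedom the common biological coefficient of variation was 25.6%. SE is the absolute log2 fold change over the square root of the F statistic. Controls alone were contrasted in a fit of 3 groups, whose spread comes from the fusion libraries alone. Single libraries were compared at a prior count of 2, among genes at 1 CPM or more in the higher one.

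Members and lists were chosen with earlier results of these data known. The naming rule took the 10 genes, every other pathway gene past the threshold, the 2 largest changes at a mean of at least 2 CPM in lists without one, the 3 most similar genes for each of the 10 at least 2-fold apart with groups not overlapping, and map neighbours. Atf4, Asns, Slc1a4, Slc6a9, Slc46a1, Slc19a1, Slc38a1, Mthfd1, Tyms, Hnf4a and the other genes outside that rule were named after their values were seen. Some genes of the lists and of the naming rule are not reported here. The fit was also run on 10 simulated data sets, drawn at the common dispersion with replicates of the same kind in each group. They lack the difference between the 2 kinds of control, and nothing is read from them. Alternatives were other scalings and filters, a fit that is not robust, a DESeq2 1.42.0 Wald test, limma 3.58.1 on log2 of TPM plus 1 at a mean of at least 1 TPM, each control alone and each library left out. Plots used matplotlib 3.10.9.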

Additional observations from a re-analysis of the deposited data

How the results depend on the processing

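The direction of the log2 fold change held under all 13 alternatives for Tdh (-2.12 to -1.77), Gcat (-0.65 to -0.50), Gldc (-3.39 to -1.28) and Shmt1 (-0.78 to -0.56) and, where fitted, for Dmgdh (0.51 to 2.29) and Bhmt (1.8 to 9.54, the widest of the 10, with 1 wild-type count). It changed sign under at least 1 alternative for Shmt2 (-0.04 to 0.35), Mthfd2 (-0.69 to 0.95), Phgdh (-0.89 to 0.52) and Mat2a (-0.51 to 0.13). The main test called 468 genes higher and 96 lower, and 2 and 1 of the pathway genes outside the 10. With no filter on low counts these were 1315 and 631, and 4 and 3; with DESeq2's Wald test 931 and 432, and 4 and 2; with limma on TPM 276 and 46, and 1 and 0. Against the empty vector alone 207 genes were higher and 0 pathway genes were; against the parental line alone 247 genes were higher, with 0 pathway genes higher and 0 lower. Leaving out 1 library at a time gave 152 to 367 genes higher and 11 to 185 lower, both lowest without fusion 1, and 0 to 2 pathway genes higher and 0 to 1 lower. The cause was not tested. The pathway genes called varied too: Folr1, Ahcyl2 and Slc38a2 lost their call under 6, 5 and 5 alternatives, and genes that did not pass the main test were called under others: Slc38a1 with no filter, with DESeq2, without the empty-vector library and without fusion 2, Slc46a1 with no filter, with DESeq2 and without fusion 2, Slc6a12 with no filter, with DESeq2 and without the parental library, and Pfas with no filter. Without the empty-vector library and without fusion 2, Slc38a1 and not Slc38a2 was the 1 gene called lower. Where 1 library is left out, its group's lone library is assumed to vary like the other group. No paired analysis was possible because the control libraries carry no replicate numbers. With 0 to 20 wild-type counts, depth limits what can be said of Bhmt and Dmgdh. The lowest value for Bhmt, 1.8, came from limma on log2 of TPM plus 1, a scale unlike that of the count fits. The next lowest was 6.16, without fusion 1.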

Other observations

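The nearest genes on either side of the other 8 genes were read for comparison. Mtmr9, 10558 bases from Tdh, read 53.3 CPM in the parental line, 51.5 CPM with the empty vector, 46.2 CPM in fusion 1 and 51.0 CPM in fusion 2 (adjusted p = 0.807, edgeR), and Fam167a on the other side did not pass (adjusted p = 0.801). Uhrf2, 4724 bases from Gldc, stood at 74.3 and 57.5 CPM against 85.7 and 84.4 CPM (adjusted p = 0.363, edgeR). Top3a and Dhrs7b, beside Shmt1, had log2 fold changes of -0.02 and -0.16. Mob1a lies 107 bases from Mthfd2 and stood at 40.9 and 33.3 CPM in the controls, where Mthfd2 differed 3.05-fold.

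Nxph4, a secreted neurexophilin encoded 3028 bases from Shmt2, passed the test. It rose from 1.88 and 2.33 CPM to 7.22 and 9.76 CPM (log2 fold change 2.01 with SE 0.39, adjusted p = 0.0452, edgeR), but did not pass against the parental line alone (adjusted p = 0.0966) or the empty vector alone (adjusted p = 0.146). H1f0, a linker histone gene 369 bases from Gcat, stood at 70.0, 41.1, 73.9 and 127 CPM in the parental, empty-vector, fusion 1 and fusion 2 libraries and did not pass (adjusted p = 0.222, edgeR).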
